A study of Mus musculus with 3 samples.

Results

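Skeletal muscle of exercised ICR mice was compared with and without the Sasa quelpaertensis preparation that the labels call SQH, gene by gene. The contrast takes 2 of the 3 libraries of the series, exercise plus SQH and exercise control, and subtracts the exercise control from SQH on the deposited log2 scale. Of 24481 gene rows, 7857 were compared: those with a linear value of at least 66.5 on average across the libraries, the median of the 15714 rows above 0 in any library. Zdhhc17 was the last row inside that minimum (mean 66.5, difference 1.85) and Ttf2 the first outside it (difference -0.38).

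The study took muscle from a control (labelled NC), an exercise control and an exercise plus SQH group, each with 1 sequenced library. The series title names leaf extracts of the dwarf bamboo Sasa quelpaertensis and fatigue in mice. All 3 groups were mice of the outbred ICR stock, taken on postnatal day 42. Which muscle was taken, the sex, what the control received, the exercise, the dose of SQH and its duration, and whether a library holds 1 animal or a pool are not stated in the labels.

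Skeletal muscle is a mix of slow fibres, which contract slowly and burn fuel with oxygen, and several kinds of fast fibre, which lean more on glycolysis. Each kind carries its own paralogues of the contractile proteins, so that the ratio of slow to fast transcripts follows the fibre make-up of the piece that was sampled as well as regulation inside the fibres. Exercise and loading also raise brief waves of transcription factor, stress and matrix genes in muscle.

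Libraries were made with QuantSeq, which reads the 3' end of each messenger RNA. Reads therefore do not scale with transcript length. How fully the 3' end of each gene was captured was not tested, so shares between genes describe reads and are compared across libraries. About 10.8 M reads lay behind the control, 8.12 M behind the exercise control and 12.4 M behind the SQH library, and these depths are estimates. With 1 library a group there is no replicate spread and no p-value. The value after ± covers the counting of reads alone (an approximate standard error), and 3 values in a row are log2 levels in the order control, exercise control, SQH. A row is called higher or lower where SQH and exercise control differ by at least 2-fold. The libraries carried the actin of skeletal muscle, Acta1, at 18.56, 18.34 and 19.01. Of 12 heart muscle genes, Gata4, Myl7 and Nkx2-5 were at 0 in all 3. Each library without SQH had 6 genes of that list at 0, and the SQH library 3. Its members past the minimum, Myh6 and Actc1, were both called higher. The exercise control stood apart in its slow-fibre genes, so the control is given beside the members described in full, and SQH against control serves as the view without that library.

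Most rows differed little between the exercised libraries: 5491 of 7857 (69.9%) lay within 0.5 log2 units of each other, and the median difference was 0.03. SQH was called higher for 446 rows (5.68%) and lower for 183 (2.33%), and 52.1% of rows lay above 0. The list counts below are to be read beside these shares. Large differences were mostly on the higher side, with 79 rows at least 4-fold higher and 12 at least 4-fold lower, and 26 against 2 at 8-fold. These counts include 2 rows at 0 in a compared library, Tecrl on the higher side and Prss22 on the lower. The direction of the called rows depended in part on scaling: 70.9% of calls were higher as deposited, 61.4% after each library was centred on its median and 61.6% after quantile normalization. Low genes gave more calls. In the lowest of 4 level classes 8.91% of rows were higher and 4.94% lower, and in the highest class 4.07% and 1.48%. A high level in 1 library counts towards the minimum. Some low genes passed only through the library where they were high, and their calls are descriptions.

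**Figure D1:**
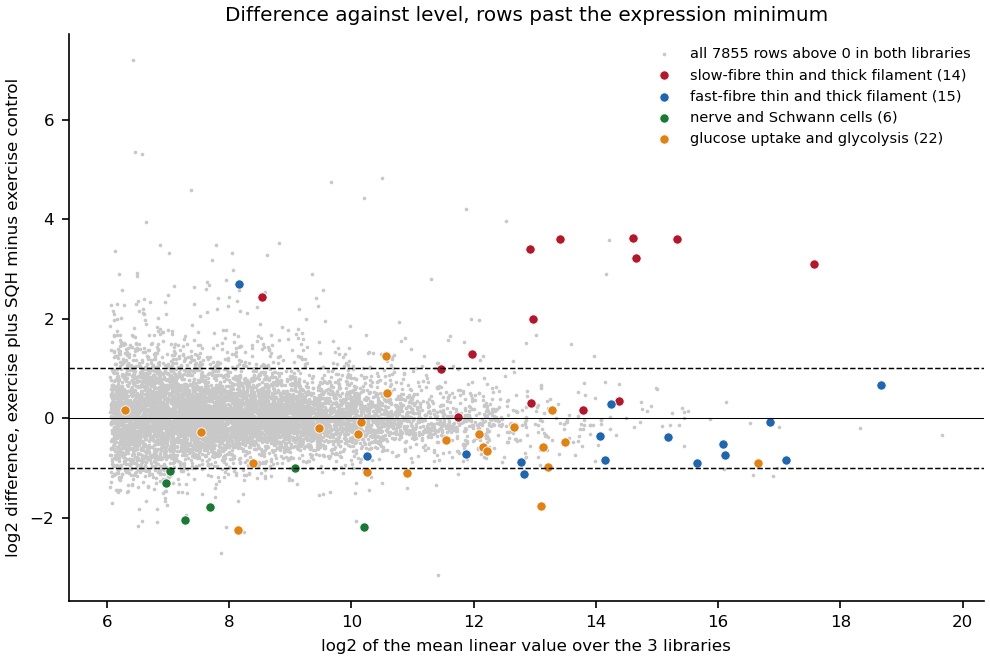
Each point is 1 gene row above 0 in both libraries, with the log2 of its mean linear level on the x axis and the log2 difference of SQH minus exercise control on the y axis; colours mark 4 gene lists and dashed lines the 2-fold size. The leading slow-filament genes lie at high levels and differences over 3, while 69.9% of rows lie within 0.5 of 0.

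The slow contractile programme paired large differences with high levels. Transcripts of slow myosin, the slow troponins, slow tropomyosin and the slow calcium pump were 7.44-fold (the pump Atp2a2) to 15.6-fold (the myosin Myh6) higher with SQH than in the exercise control, and within 0.5 log2 units of the control. In bulk tissue, fewer slow fibres and less slow-fibre RNA per fibre cannot be told apart. Myh7, the slow (type I and heart) myosin heavy chain at chr14:54970684-54994626 in GRCm38, had log2 levels of 14.91, 11.00 and 14.57, which is 11.9-fold higher with SQH than in the exercise control (3.57 ± 0.036). Its neighbour Myh6, the other myosin heavy chain shared with heart, had 13.25, 8.90 and 12.86 (3.96 ± 0.073). Both myosins are near-identical in parts, so reads may have been split between them. Mhrt, a noncoding transcript between them, had 12.57, 8.04 and 12.25 (4.21 ± 0.099). It shares 484 exonic bases with Myh7 on the opposite strand, so the origin of its reads cannot be told apart. In all 3 rows the exercise control was the low library, and SQH lay near the control.

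Among the other myosin heavy chains the fast IIb gene Myh4 was the one called lower, with 16.93, 17.35 and 16.19 (-1.16 ± 0.006). It kept that call as deposited but not after quantile normalization. The fast oxidative IIa chain Myh2 was level between the exercised libraries at 15.61, 15.34 and 15.36 (0.01 ± 0.010). The IIx chain Myh1 was likewise level between them, and below both in the control, at 14.20, 14.99 and 15.14 (0.15 ± 0.011). The developmental chains, which mark newly formed or regenerating fibres, were not called: Myh8 was -0.68 and Myh3 0.43 apart. Myh7b and Myh14 differed by 0.65 and 0.29.

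Taken as shares of the 4 adult myosins, Myh7 made up 0.84% of the exercise control against 13.7% of the control and 13.7% of the SQH library. Myh4 had 55.7%, 68.7% and 42.2% in the usual order. Myh1 had 8.38%, 13.3% and 20.3%, highest with SQH, and Myh2 had 22.2%, 17.1% and 23.7%. The widest exact 95% binomial interval of these shares spanned ±0.202 percentage points, for counting at the approximate reads alone.

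**Figure D2:**
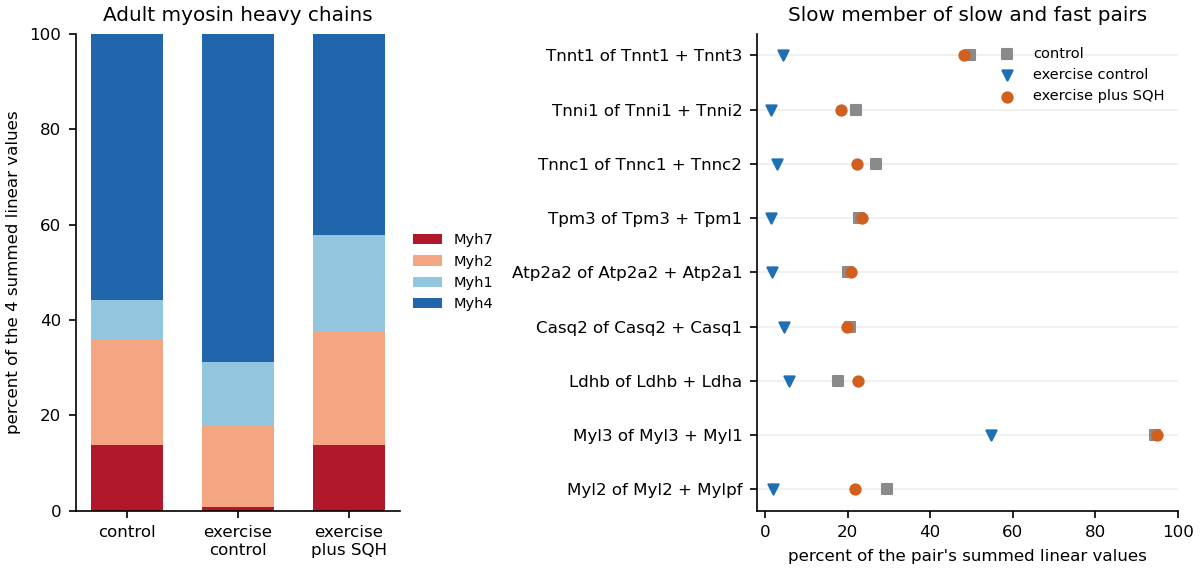
Stacked bars give the percent of each adult myosin heavy chain among 4 in each library, and points the percent of the slow paralogue within 9 slow and fast pairs. The exercise control is the lowest point in every pair and holds 0.84% Myh7, against 13.7% in the other libraries.

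The slow filament list, 14 thick, thin and Z-disc proteins of slow or oxidative fibres, had all 14 members past the minimum. Of these 9 were called higher, none lower, and the median difference was 2.22 against 0.03 over all rows. The list was picked with earlier results in view, so its count is a description. Against the control, the same list had a median of -0.27 with SQH and -2.71 in the exercise control. Tpm3, slow alpha-tropomyosin, had 15.33, 11.31 and 14.93 (3.62 ± 0.032). Tnnt1, the slow troponin that holds the complex on tropomyosin, had 16.07, 12.01 and 15.62 (3.61 ± 0.025). Tnni1, its inhibitory partner, had 14.17, 10.11 and 13.70 (3.59 ± 0.049). Each of these was lowest in the exercise control by over 3 units. Myl2 and Myl3, the regulatory and essential light chains of slow muscle, had 13.61, 9.87 and 13.28 (3.40 ± 0.053) and 18.23, 14.81 and 17.91 (3.10 ± 0.010). The calcium-binding troponin of slow fibres, Tnnc1, had 15.30, 11.82 and 15.04 (3.22 ± 0.027). Smaller gaps stood at the Z-disc: the calcineurin-binding Myoz2 had 13.42, 11.37 and 13.37 (1.99 ± 0.033) and the stretch-responsive Ankrd2 12.45, 10.87 and 12.16 (1.29 ± 0.041). Myl6b, a light chain of slow fibres, had 9.42, 6.06 and 8.50 (2.44 ± 0.20). The mechanosensor Csrp3 missed the size rule at 0.98, and Smpx, Actn2, Mybpc1 and Myot were 0.35, 0.31, 0.16 and 0.03.

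Start-site windows of these genes were read from RefSeq (GRCm38.p6, 250 bases before to 50 after the start) and searched for CATTCC on both strands, the core letters of the MCAT element that TEAD factors bind in muscle promoters. The windows that held it are shown to display the letters in place, with the 6 letters in capitals as CATTCC or, on the other strand, GGAATG. Sequences run 5′ to 3′ on the strand of the gene.
Myl3, chr9:110763428-110763727, plus strand: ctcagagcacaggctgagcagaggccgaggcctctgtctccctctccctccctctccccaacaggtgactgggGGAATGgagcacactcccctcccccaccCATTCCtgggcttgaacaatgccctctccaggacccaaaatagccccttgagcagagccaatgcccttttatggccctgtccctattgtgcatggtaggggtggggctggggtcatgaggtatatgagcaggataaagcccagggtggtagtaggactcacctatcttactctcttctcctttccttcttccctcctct
Tnnc1, chr14:31208062-31208361, plus strand: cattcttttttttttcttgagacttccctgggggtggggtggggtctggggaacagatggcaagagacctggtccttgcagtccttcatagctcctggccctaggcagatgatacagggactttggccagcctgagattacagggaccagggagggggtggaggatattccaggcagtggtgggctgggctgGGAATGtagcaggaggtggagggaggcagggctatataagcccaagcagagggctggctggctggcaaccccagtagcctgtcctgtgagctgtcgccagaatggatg
Myh7, chr14:54994577-54994876, minus strand: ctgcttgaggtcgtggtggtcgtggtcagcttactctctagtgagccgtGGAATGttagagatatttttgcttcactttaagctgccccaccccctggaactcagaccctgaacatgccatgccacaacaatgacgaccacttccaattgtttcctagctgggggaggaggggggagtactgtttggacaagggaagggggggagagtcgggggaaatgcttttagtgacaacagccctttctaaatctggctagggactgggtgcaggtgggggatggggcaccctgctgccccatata
Myh6, chr14:54966558-54966857, minus strand: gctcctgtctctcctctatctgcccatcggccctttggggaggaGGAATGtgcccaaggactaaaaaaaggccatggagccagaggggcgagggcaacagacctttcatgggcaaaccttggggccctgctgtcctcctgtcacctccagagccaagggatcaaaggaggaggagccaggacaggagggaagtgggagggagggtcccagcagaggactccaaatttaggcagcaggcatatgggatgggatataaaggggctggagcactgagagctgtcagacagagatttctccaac

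Of 15 called genes of the slow filament, slow myosin and slow calcium-handling groups, 13 had a window, and 4 of these held the letters. That is 4 of 17 windows (23.5%), beside 14.7% of all 32851 windows in the RefSeq table. Tpm3, Tnnt1 and Tnni1, the slow filament genes with the largest differences, had windows without them. A second, nearby Myh7 window held none. A match is a description of letters, not a bound site.

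**Figure D3:**
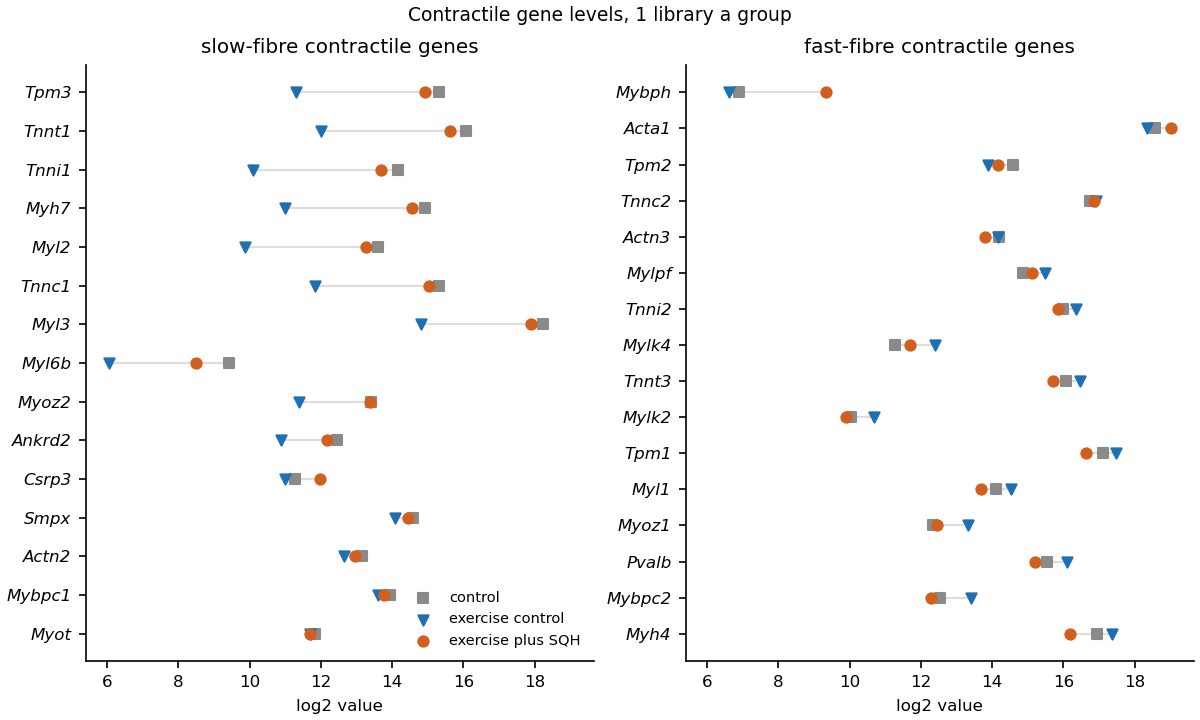
Log2 levels of slow and fast contractile genes in the control, exercise control and SQH libraries, 1 point a library. From Tpm3 down to Myl3 the exercise control lies over 3 units below SQH, and from Mylpf down to Mybpc2 on the fast side it lies above SQH by 1.12 units or less.

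Fast filament genes lay on the other side and by far less. Of 15 members 12 were below 0 and the median was -0.72 (-0.39 after quantile normalization), but 1 was called lower and 1 higher. Against the control the median was -0.15 with SQH and 0.38 in the exercise control. Mybpc2, the fast myosin-binding protein C, was the lower one with 12.53, 13.41 and 12.29 (-1.12 ± 0.023). Pvalb, the calcium buffer that speeds relaxation of fast fibres, had 15.54, 16.09 and 15.20 (-0.89 ± 0.0088), and fast troponin T, Tnnt3, 16.08, 16.46 and 15.71 (-0.74 ± 0.0076). For each the exercise control was highest of the 3 libraries. Tpm1, Myl1 and Myoz1 differed by -0.83, -0.83 and -0.87, the kinases of the fast light chain Mylk2 and Mylk4 by -0.77 and -0.71, and Tnni2, Mylpf, Actn3 and Tnnc2 by -0.52, -0.37, -0.35 and -0.07. Tpm2 and Acta1, which the list holds though they are not particular to fast fibres, lay above 0 at 0.28 and 0.67. Mybph, a myosin-binding protein whose level is low in resting fast muscle, was called higher at 6.89, 6.62 and 9.32 (2.70 ± 0.17). It shares 1162 exonic bases with Adora1 on the opposite strand, whose difference was 2.72, so the origin of those reads cannot be told apart; Adora1 was named after its value was seen.

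Within pairs of slow and fast paralogues the slow share does not change when a library is multiplied by a factor. Tnnt1 was 4.37% of Tnnt1 plus Tnnt3 in the exercise control, against 49.8% in the control and 48.3% with SQH. The slow share was 22.1%, 1.29% and 18.5% for Tnni1 against Tnni2, and 26.8%, 2.83% and 22.2% for Tnnc1 against Tnnc2. Tpm3 against Tpm1 gave 22.7%, 1.38% and 23.5%. Myl3 against Myl1 gave 94.6%, 54.8% and 94.9%, so the size of the share differed widely by pair within a library. Over 9 pairs the widest exact 95% interval was ±0.764 points, for counting alone. In each pair named here the exercise control was far below the other libraries, which were near each other.

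Calcium handling split by fibre kind. Of 22 members 5 were called higher and 1 lower, with a median of -0.07. Sln, sarcolipin, the small peptide that uncouples the calcium pump, at chr9:53850164-53854560, gave the largest difference of the list: 11.43, 5.74 and 10.56 (4.82 ± 0.22, 28.2-fold). Its close relative Pln, phospholamban, had 6.65, 5.80 and 6.90 (1.10 ± 0.24). The slow calcium pump Atp2a2 had 14.77, 11.64 and 14.53 (2.90 ± 0.029) and the slow calcium store protein Casq2 11.40, 9.06 and 10.99 (1.93 ± 0.073). All 4 were lowest in the exercise control. The fast pump Atp2a1 was lower with SQH at 16.76, 17.48 and 16.47 (-1.01 ± 0.0056). It shares 763 exonic bases with Rabep2 on the opposite strand, which had 16.32, 17.13 and 15.99 (-1.14). The origin of the reads of these rows cannot be told apart. Atp2a2 made up 20.1%, 1.71% and 20.7% of both pumps, with Atp2a1 taken at the level of its row. Rcan1, a calcineurin inhibitor that calcineurin itself induces, had 11.09, 10.06 and 11.45 (1.39 ± 0.054). The release channel Ryr1 and its voltage sensor Cacna1s were -0.33 and 0.28, and the fast store protein Casq1 -0.44. The calls of Pln and Atp2a1 ended where a call had to clear 2-fold by 2 counting standard errors, and that of Pln also with a pseudocount of 10.

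Membrane and synapse genes gave 3 higher and 1 lower among 18 of 24 past the minimum (median 0.26). The inward-rectifier potassium channel Kcnj2 had 9.50, 7.72 and 10.14 (2.41 ± 0.11). Chrna1, the acetylcholine receptor subunit of the endplate, had 10.17, 8.66 and 10.51 (1.85 ± 0.085), and the agrin receptor Lrp4 6.75, 5.86 and 7.59 (1.73 ± 0.23). The potassium channel Kcnc1 was lower at 8.50, 9.86 and 8.53 (-1.33 ± 0.084), with control and SQH level. Of the oxygen and blood-flow list, none of 12 was higher and 1 was lower: the muscle nitric oxide synthase Nos1, at 7.31, 8.54 and 6.95 (-1.58 ± 0.14). Myoglobin, Mb, had 16.35, 15.83 and 16.15 (0.33), and the vessel growth factor Vegfa 0.26.

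Genes of the glucose uptake and glycolysis list lay mostly below 0. Of 22 members past the minimum (of 25), 18 lay below 0 with a median of -0.45, and the calls were 4 lower and 1 higher. The list also holds genes that are not steps of glycolysis, among them the 3 lower ones named here. Against the control the list median was 0.03 with SQH and 0.71 in the exercise control. Fbp2, the muscle fructose-bisphosphatase, had 7.48, 9.11 and 6.87 (-2.24 ± 0.13). Slc16a3, the lactate exporter of glycolytic fibres, had 12.57, 13.94 and 12.18 (-1.76 ± 0.022, 3.39-fold lower with SQH). Gpd1, the cytosolic glycerophosphate dehydrogenase, had 10.47, 11.54 and 10.45 (-1.10 ± 0.044). In all 3 the exercise control was the high library. Ldhb, the heart-type lactate dehydrogenase subunit, was the higher one at 10.77, 9.71 and 10.95 (1.24 ± 0.061). It was 17.7%, 5.79% and 22.4% of Ldha plus Ldhb. Glycogen genes followed the same side, 11 of 14 below 0 (median -0.49), with the phosphorylase kinase subunits Phkb at 9.81, 11.03 and 9.59 (-1.45 ± 0.057) and Phkg1 at 9.21, 9.81 and 8.80 (-1.01 ± 0.080) called lower; the latter call ended with the pseudocount and with the stricter size.

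Fat use genes lay more often above 0 than below, beside 52.1% of all rows above 0. The beta-oxidation list had 15 of 18 members above 0 and a median of 0.27, with only Etfa called, the electron carrier from acyl-CoA dehydrogenases, at 9.12, 7.72 and 9.49 (1.78 ± 0.12). Fatty acid uptake and storage had 16 of 24 members above 0, with a median of 0.15 (0.07 after centring), and 2 were called higher. Fabp3, the fatty-acid carrier of muscle and heart, had 14.20, 13.09 and 14.33 (1.24 ± 0.019), and the triglyceride-forming Dgat2 9.67, 8.57 and 9.89 (1.32 ± 0.090). Pdk4, a kinase that inhibits pyruvate dehydrogenase, was higher with SQH than in both other libraries, at 11.42, 11.04 and 13.00 (1.96 ± 0.037). It was the 1 called gene of 12 in the pyruvate dehydrogenase list. Idh2 was the 1 called of 19 citric acid cycle genes, at 13.13, 11.64 and 12.79 (1.16 ± 0.032).

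Respiratory chain genes gave almost no calls. None of 37 complex I genes was called, and their median was -0.12 with 26 below 0. Of 38 genes of complexes III, IV and ATP synthase 1 was called, Cox7c at 11.56, 10.63 and 11.75 (1.12 ± 0.045); their median of 0.03 changed sign with scaling. Succinate dehydrogenase differed by subunit. Sdhd, a small membrane anchor at chr9:50596357-50603812, had 9.69, 5.87 and 10.60 (4.74 ± 0.21, 26.7-fold). Its assembly factor Sdhaf4 had 8.72, 7.89 and 9.13 (1.24 ± 0.12). The catalytic subunits were level between the exercised libraries, Sdha at 11.89, 11.96 and 11.91 (-0.04) and Sdhb at 12.57, 12.23 and 12.25 (0.02), and the other anchor Sdhc was 0.47 apart. The gap thus stood in 1 anchor subunit of the complex, and which 3' end of Sdhd the reads reached was not tested. Of 73 mitochondrial ribosome genes 4 were higher and 1 lower (median -0.08), near the 5.68% and 2.33% over all rows. The largest difference was that of Mrps28, at 8.16, 5.54 and 8.86 (3.32 ± 0.24), with Mrpl27 at 1.60.

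Regulators of mitochondria and energy gave a few large differences. Ppargc1a, the exercise-induced coactivator of mitochondrial genes, had 10.75, 11.35 and 12.41 (1.06 ± 0.035), highest with SQH; the call was lost after centring and at the stricter size. Mss51, a muscle-specific protein of mitochondria at chr14:20482867-20496901, was 8.88-fold lower with SQH, at 10.95, 12.45 and 9.30 (-3.15 ± 0.055), the lowest difference of the biogenesis list and below the control too. Myostatin itself, Mstn, which limits muscle size, had 8.21, 8.80 and 7.27 (-1.52 ± 0.13) and stood in the same order. The carnosine synthase Carns1 had 5.49, 7.48 and 5.67 (-1.82 ± 0.21), and passed the minimum only through the exercise control. Muscle creatine kinase Ckm was -0.17 apart, and the AMPK list had 1 lower of 21, the arrestin-like Arrdc2, at 7.75, 7.42 and 5.94 (-1.48 ± 0.20).

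**Figure D4:**
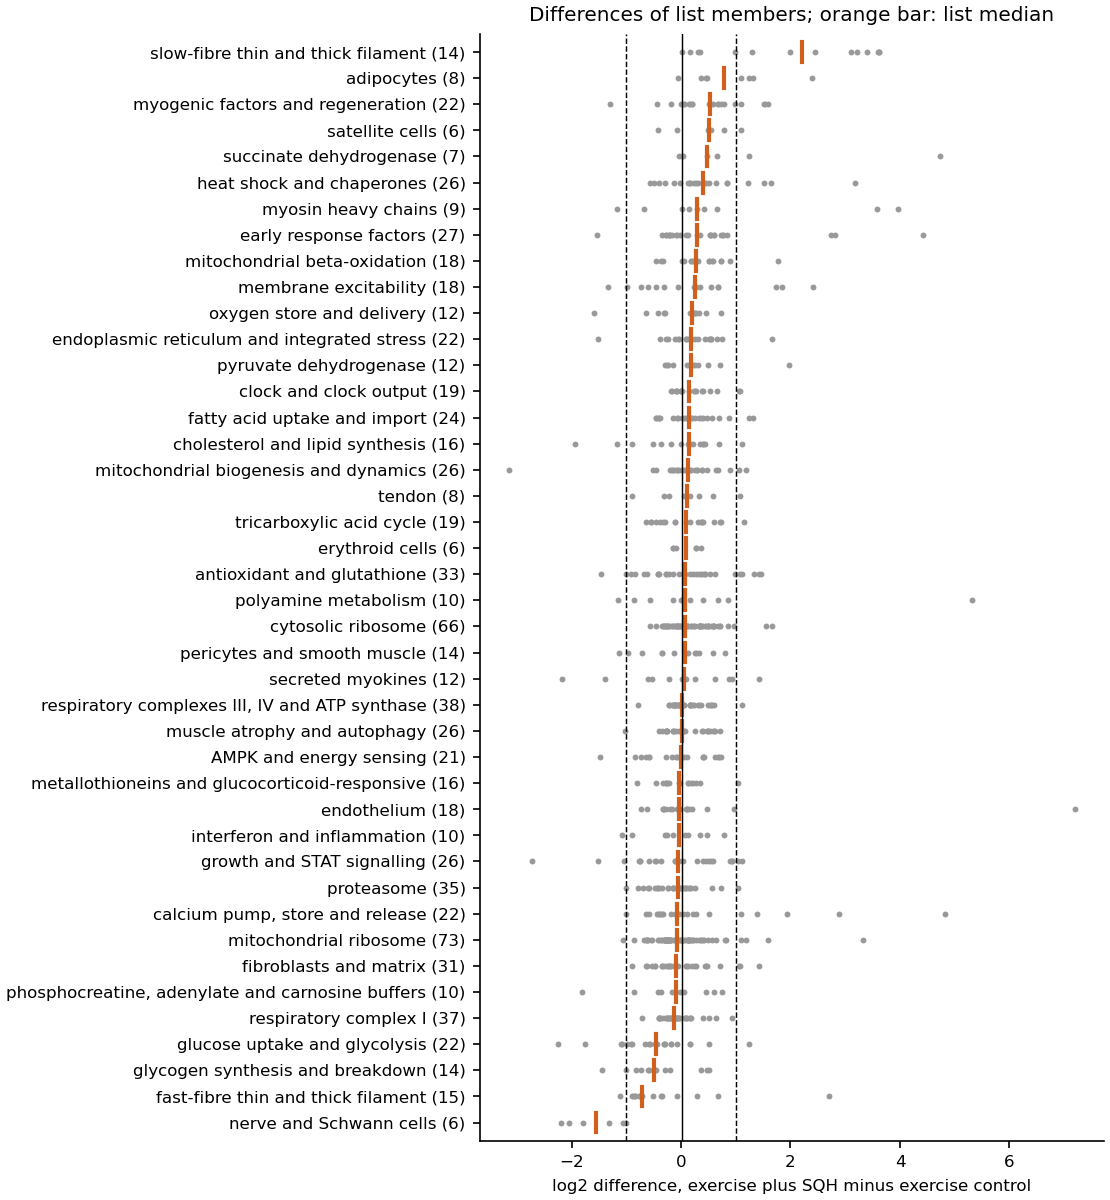
Differences of SQH minus exercise control for the members of each gene list, with the list median marked, in log2 units. The slow filament list reaches a median of 2.22, nerve and Schwann cell markers -1.55, and most lists lie within 0.5 of 0.

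Of 27 compared genes that exercise or load induces early, 3 were called higher and 1 lower (median 0.29). Cyr61 and Ctgf encode matrix-bound signalling proteins that serve as readouts of YAP and TEAD activity. Cyr61 had 10.56, 6.50 and 10.93 (4.43 ± 0.17, 21.5-fold), low in the exercise control and alike in the others. Ctgf had 10.66, 9.55 and 12.36 (2.81 ± 0.060), above both other libraries. The stress factor Atf3 had 6.78, 5.98 and 8.72 (2.75 ± 0.21), and Gadd45g, a growth-arrest gene, was lower than in both at 10.19, 9.61 and 8.08 (-1.53 ± 0.095). In the myogenic and repair list 4 of 22 were higher and 1 lower, 19 above 0 and a median of 0.53. Ankrd1, a titin-binding stretch sensor, had 6.25, 7.36 and 8.87 (1.52 ± 0.14), Xirp1, of fibre repair sites, 9.29, 8.59 and 10.13 (1.54 ± 0.089), and Myog, the differentiation factor of muscle, 9.11, 8.24 and 9.83 (1.59 ± 0.10). Lrrc17 was lower at 9.71, 11.27 and 9.98 (-1.29 ± 0.051).

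The start-site windows of Cyr61 (Ccn1 in RefSeq) and Ankrd1 held the same 6 letters, as did 14.7% of all windows. They are shown because both genes are known TEAD and YAP targets. No window was found for Ctgf.
Cyr61, chr3:145649936-145650235, minus strand: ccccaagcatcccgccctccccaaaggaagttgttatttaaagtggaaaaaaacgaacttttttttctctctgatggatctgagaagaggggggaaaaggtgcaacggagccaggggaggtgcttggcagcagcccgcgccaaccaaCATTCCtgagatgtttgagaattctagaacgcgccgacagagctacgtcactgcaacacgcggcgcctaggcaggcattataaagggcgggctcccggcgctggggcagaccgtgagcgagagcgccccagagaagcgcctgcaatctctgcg
Ankrd1, chr19:36119795-36120094, minus strand: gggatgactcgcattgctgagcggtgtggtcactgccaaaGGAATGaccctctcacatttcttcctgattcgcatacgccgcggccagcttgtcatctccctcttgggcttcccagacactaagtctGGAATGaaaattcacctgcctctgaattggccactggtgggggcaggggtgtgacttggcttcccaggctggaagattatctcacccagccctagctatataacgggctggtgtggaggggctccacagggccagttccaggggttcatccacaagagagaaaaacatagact

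Chaperones of the heat shock response had 20 of 26 members above 0 and a median of 0.41, with 4 higher and none lower. Hspa1a, the inducible HSP70, had 7.86, 5.29 and 8.48 (3.19 ± 0.26); its near-identical copy Hspa1b may share reads with it. The small heat shock protein Cryab had 12.98, 11.83 and 13.35 (1.51 ± 0.029), and the HSP40 co-chaperones Dnajb5 and Dnajb4 11.98, 10.33 and 11.97 (1.64 ± 0.048) and 11.18, 9.57 and 10.79 (1.22 ± 0.064). Cryab overlaps Hspb2, which was 0.85 apart. In each of the 4 the exercise control was the low library. In the endoplasmic reticulum and amino acid stress list the pair of calls had opposite signs. Dnajb9, a chaperone of the unfolded protein response, was higher with 5.49, 5.68 and 7.34 (1.66 ± 0.24), and Chac1, a glutathione-degrading target of ATF4, lower with 5.84, 8.55 and 7.03 (-1.52 ± 0.14).

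Antioxidant genes were mixed, 5 higher and 2 lower of 33 (median 0.08). The glutathione transferases Mgst1 and Mgst3 had 7.01, 6.44 and 7.89 (1.45 ± 0.19) and 8.20, 7.93 and 9.36 (1.42 ± 0.11), and Gsto1 8.40, 7.13 and 8.46 (1.33 ± 0.15). The regulatory subunit of glutathione synthesis, Gclm, was lower at 6.58, 7.67 and 6.20 (-1.46 ± 0.18). Of 26 atrophy and autophagy genes none was called higher and 1 lower. The proteasome list had Psma3 at -1.01 and Psma5 at 1.04 among 35, calls that ended at 2 counting standard errors past 2-fold (Psma5 also after centring and quantile normalization), and the cytosolic ribosome list Rpl26 at 1.66 and Rpl21 at 1.55 among 66. Ribosomal protein genes have many processed copies, so these 2 rows are uncertain. The medians of the last 3 lists lay between -0.06 and 0.07.

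Growth and cytokine signalling gave 2 higher and 3 lower of 26 (median -0.05). Cish, a feedback inhibitor that STAT5 induces, was the lowest at 6.86, 8.98 and 6.26 (-2.72 ± 0.16, 6.58-fold lower). Grb14, an adaptor that damps insulin receptor signalling, was higher at 9.08, 7.06 and 8.16 (1.11 ± 0.16). Fstl3, a myostatin and activin binder, had 6.25, 6.57 and 5.53 (-1.04 ± 0.25). It shares 1157 exonic bases with Prss57 on the opposite strand, and both rows held the same value in each library, so these reads cannot be assigned to either gene. Of the myokine list of secreted factors, 12 of 24 were past the minimum. Metrnl was higher at 7.16, 6.18 and 7.60 (1.42 ± 0.21), and Il15 and Cntf lower at 5.55, 6.79 and 5.40 (-1.39 ± 0.25) and 5.74, 7.49 and 5.32 (-2.17 ± 0.23). Il15 and Cntf passed the minimum only through the exercise control, where they were high. Cntf shares 847 bases on its own strand with Zfp91, which was -0.13 apart. Like the nerve markers below, Cntf was high in the exercise control, and which cells its reads came from was not tested. The calls of Grb14, Fstl3 and Il15 ended at the stricter size, and that of Fstl3 also with the pseudocount. Of the clock list 2 of 19 were higher, the output factor Dbp at 8.95, 7.03 and 8.10 (1.07 ± 0.16) and the repressor Nr1d1 at 8.97, 7.59 and 8.65 (1.06 ± 0.13); both were called as deposited and not after centring, quantile normalization or at the stricter size. Dbp overlaps Sphk2, which was 0.35 apart, and Nr1d1 overlaps Thra, 0.42 apart.

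Polyamine and lipid genes added single large differences. Paox, a polyamine oxidase, had 7.11, 1.86 and 7.17, resting on an estimated 3 reads in the exercise control. The difference was 5.31, with a 95% counting interval of 3.77 to 7.63 at the rounded reads. Smox, spermine oxidase, was lower at 8.97, 8.97 and 7.82 (-1.15 ± 0.11). In the cholesterol list the sterol desaturase Sc5d was lower at 7.43, 7.88 and 5.94 (-1.94 ± 0.19), and the fatty acid desaturase Scd1 higher at 7.52, 7.33 and 8.44 (1.12 ± 0.14). Sc5d with SQH was below the control as well, and Scd1 above it. The Smox and Scd1 calls ended at the stricter size.

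Markers of cells other than muscle fibres also differed, and their part in the results above was not tested. Nerve and Schwann cell genes were lower with SQH: the 6 past the minimum were called lower, and the other 12 of the 18 were below it. Their high exercise control level counts towards the minimum, so the count is a description. Their summed linear level was 1444, 4763 and 1566, and Nefl was at 0 in every library. Mbp, of the myelin sheath, had 6.78, 8.62 and 6.83 (-1.79 ± 0.14) and the Schwann cell gene Ncmap 5.93, 8.34 and 6.29 (-2.05 ± 0.17). Pmp22, Drp2 and S100b were -1.01, -1.06 and -1.31; these 3 calls ended at 2 counting standard errors past 2-fold, and those of Pmp22 and Drp2 also with a pseudocount of 10. The list median was -1.55, and -0.94 without the minimum. Here the exercise control was the high library, and control and SQH were near each other.

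Fat cell genes leaned to SQH, with 4 of 8 past the minimum (of 16) higher and a median of 0.78. That median ranged from 0.46 with the upper quartile as minimum to 1.17 with no minimum; summed levels were 24534, 20082 and 27899. Cidea, of lipid droplets, had 6.62, 4.95 and 7.34 (2.39 ± 0.30) and the adipokine Cfd 6.27, 6.25 and 7.49 (1.25 ± 0.20). The abundant members Fabp4, Acsl1 and Lipe were not called, at 0.47, 0.37 and -0.05. The defining marker Adipoq was below the minimum in level, at 6.08, 3.83 and 6.09, and Lep at 0 in all 3. Fibroblast and matrix genes gave 3 higher of 31 with a median of -0.08, summing to 47606, 57681 and 47466. Postn, of matrix under load, had 5.66, 5.80 and 7.23 (1.43 ± 0.23). Of the 3, Postn and Col6a1 passed the minimum only through their high SQH level, so the count is a description. Endothelial genes summed to 16925, 15193 and 16099, with 1 call of 18: Sox18, at 6.19, 0.31 and 7.52. It rests on an estimated 1 read in the exercise control (95% counting interval of the difference 4.78 to 12.6 at the rounded reads). Pericyte and smooth muscle genes summed to 45254, 35962 and 48612, with Lmod1 lower at 7.59, 8.94 and 7.81 (-1.13 ± 0.11). The calls of Cfd, Lmod1 and all 3 fibroblast and matrix genes ended at the stricter size. Leukocyte genes were scarce, with 1 of 20 past the minimum and sums of 456, 354 and 647. Satellite cell genes had sums of 2065, 1687 and 2466 and 1 higher of 6, and erythroid genes 13731, 12716 and 12682 with none called of 6. Heart muscle genes, a list that includes Myh6, summed to 11881, 687 and 7935. Tendon genes summed to 1526, 2384 and 2368, with 1 higher of 8.

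Further rows outside the lists stood at the ends of the contrast. Senp3, a SUMO protease, had 7.15, 3.84 and 8.42 (4.58 ± 0.42), and Cyfip2, an actin regulator, 9.30, 5.87 and 9.38 (3.51 ± 0.21). Sbk3 had 7.16, 3.26 and 7.19 (3.93 ± 0.52), and Ces5a 7.34, 1.28 and 6.63. The latter rests on an estimated 2 reads in the exercise control (interval 3.50 to 8.44 at the rounded reads). At the other end Itpk1, an inositol phosphate kinase, had 7.71, 8.76 and 6.58 (-2.17 ± 0.15), Adamts20 6.14, 7.76 and 5.67 (-2.09 ± 0.21) and Cdh1, E-cadherin, 5.04, 7.67 and 5.62 (-2.06 ± 0.21). Adamts20 and Cdh1 passed the minimum only through the exercise control. The lipoprotein receptor Scarb1 had 7.18, 7.49 and 5.75 (-1.74 ± 0.21). For Senp3 and Cdh1 the exercise control was the library that stood off, whereas for Itpk1 and Scarb1 SQH lay below both others. Prss22 was listed at 0 in the control and SQH and at 11.11 in the exercise control, and Tecrl at 7.76, 0 and 6.83; no fold is given for a value at 0, and both were named after their values were seen.

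**Figure D5:**
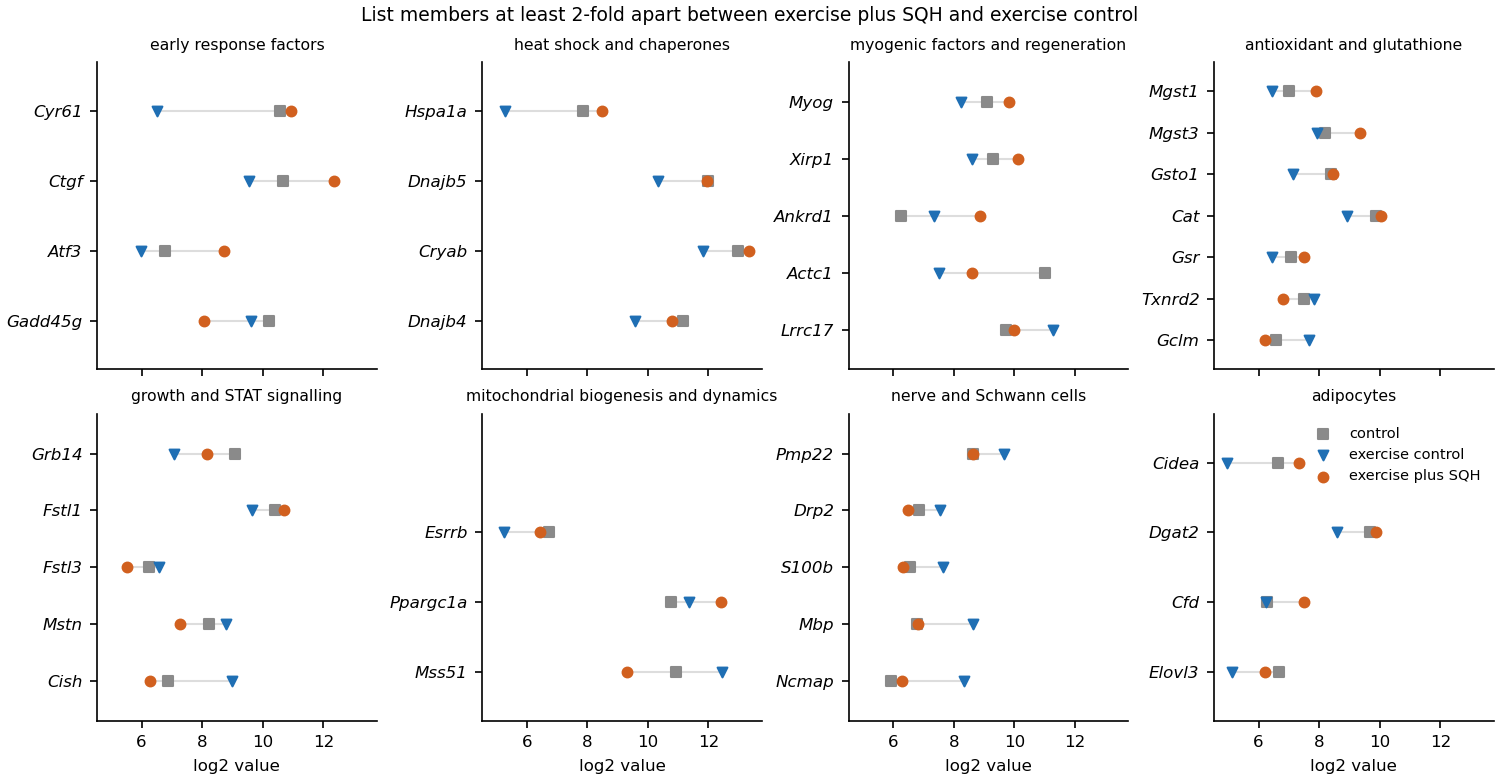
Log2 levels of called members of 8 lists (not every one is drawn) in the control, exercise control and SQH libraries, 1 point a library. SQH lies near the control for the nerve markers and Cyr61, above both other libraries for Ctgf, Atf3 and Ppargc1a, and below both for Mss51 and Gadd45g.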

How the data were processed

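Skeletal muscle RNA (500 ng a sample) was made into QuantSeq 3' libraries, per the labels' protocols. Bowtie2, edgeR and mm10 appear in the submitters' processing notes, with no version or role. Which counter, annotation, strand setting or filter was used is not given in the sources used here. The authors deposited log2 values, 1 file a library; the unit was worked out from the values. Linear values up to 9 bunch at multiples of 1 step (0.939 in the control, 1.19 in the exercise control, 0.766 with SQH), as library-size-adjusted reads would. Of these, 100%, 95.7% and 84.4% lay within 0.2 step of a multiple, too loosely to recover reads, so reads are approximate. Ribosomal precursor RNA was 9.19%, 9.06% and 7.25% of each linear sum.

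Sample titles gave the groups. The unit differed from read counts and each group has 1 library, so no test was run: a row was called at a difference of 2-fold. The counting standard error is that of a ratio of 2 Poisson counts. It covers counting only, since reads without molecular identifiers are not independent molecules. Linear values are 2 raised to the deposited value, and list sums add these.

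The members and gene lists were chosen with earlier results of these data known. Lists held 1053 genes, of which 1048 were found on 1 row and 856 passed the minimum. Named were every compared member of the contractile, calcium and similar lists, up to 4 called members of each other list (or its 2 most abundant), the 15 highest and 15 lowest rows overall and the 15 most abundant; clone names, pseudogenes, small RNAs and symbols on several rows were only counted, and a few genes the rule would name are not reported here. Positions are from GENCODE M21 (GRCm38), where 98.5% of symbols were found. Alternatives changed scaling, pseudocount, minimum and call size. The code was tested on simulated data and used Python 3.11.15, numpy 2.4.6, pandas 2.3.3, scipy 1.17.1 and matplotlib 3.10.9.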

Additional observations from a re-analysis of the deposited data

How the results depend on the processing

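The 446 higher and 183 lower rows became 375 and 236 after centring, 374 and 233 after quantile normalization, 432 and 189 at equal sums without Rn45s, 383 and 131 with a pseudocount of 10, and 398 and 172 with the minimum set on the compared libraries. Without a minimum they were 1548 and 1003 of 13129, with the upper quartile as minimum 166 and 52 of 3929, and with differences past 2-fold by 2 counting standard errors 216 and 54. Of 115 called named genes, 109 kept their call when centred, 107 under quantile normalization, 115 at equal sums, 107 with the pseudocount and 83 at 2 counting standard errors; none reversed. Calls of Cebpb, Col6a1, Dbp, Nr1d1, Ppargc1a and Psma5 ended on centring, and those of Col6a1, Dbp, Elovl3, Myh4, Nr1d1, Psma5 and Rabep2 were among the calls that ended under quantile normalization. With the pseudocount Col6a1, Drp2, Elovl3, Fstl3, Phkg1, Pln, Pmp22 and Rsad2 lost theirs. At 2 counting standard errors the losses included these except Myh4 and Rabep2, with Actc1, Atp2a1, Cfd, Cilp, Esrrb, Fbn1, Grb14, Il15, Lmod1, Mrpl44, Mrps35, Postn, Psma3, S100b, Scd1, Sdc4 and Smox. The list medians of complexes III, IV and ATP synthase, phosphocreatine buffers, AMPK, glucocorticoid-responsive, atrophy, cytosolic ribosome, growth, myokine, cholesterol, interferon, pericyte, tendon and erythroid genes changed sign under at least 1 setting. No paired analysis was possible because each group has 1 library, and for the same reason no replicate could be left out. Animal differences, the piece of muscle taken and SQH cannot be told apart in this design, and low genes in the exercise control, the shallowest library, are the least precise.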

Other observations

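Metallothionein and glucocorticoid-responsive genes had 1 called of 16 past the minimum (median -0.03, and 0.13 with no minimum): Cebpb, a transcription factor of acute responses, at 10.24, 9.28 and 10.32 in the control, exercise control and SQH libraries. The interferon and inflammation list had 10 of 26 genes past the minimum and 1 lower, the antiviral Rsad2. Among fibroblast and tendon genes, Fbn1, the microfibril protein fibrillin, had 9.11, 8.66 and 9.74, and Cilp, a matrix protein of load-bearing tissue, 6.96, 7.47 and 8.55. Col6a1, a chain of type VI collagen, had 5.89 in the exercise control and 6.96 with SQH. For Fbn1 and Cilp the SQH library was the highest of the 3, by 1.08 and 1.09 over the exercise control. The cardiac actin Actc1, which regenerating fibres also express, had 11.00, 7.51 and 8.61, so that SQH lay between the other libraries.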
